A study of Rattus norvegicus with 6 samples.

Results

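MicroRNA-21 (miR-21) was followed in the small RNA of serum exosomes from rats, as its pair of mature products, rno-miR-21-5p and rno-miR-21-3p. The members were chosen by name: the 2 rows of the deposited table that carry these names, of 867 listed miRNAs, of which 865 had at least 1 read in the 6 libraries used. Exosomes are vesicles of endosomal origin that carry RNA between cells and circulate in blood. The NXT-Exo libraries (replicates 1 to 5) came from rats given Naoxintong Capsule (NXT), a polyherbal preparation, at 1000 mg/kg/d by gavage, and the Ctl-Exo library (replicate 5) from rats given saline at 5 mL/kg/d. All were male Sprague-Dawley rats of 6 to 8 weeks on a normal diet, without a disease model or a genetic change. The study had 10 rats per group and drew 10 mL of blood from each, 110 mL of serum in all was ultracentrifuged, and the labels do not say how many rats stand behind a library. The deposited table also holds columns headed Ctl-Exo 1 to 4, for which the sample labels used here have no entry, and they were not used here. Every comparison is therefore with 1 control library of the 5 that the headers name, and its ranges and p-values hold for that library alone. Dosing lasted 7 days by the titles and the protocol. The treatment field instead counts up by 1 day per NXT-Exo replicate, from 7 to 11, and has 11 for Ctl-Exo 5.

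A miRNA gene is transcribed as a longer RNA from which a hairpin is cut out. Dicer then releases a duplex of the 5′ arm (5p) and the 3′ arm (3p) of this hairpin, one strand is loaded into an Argonaute protein as a guide, and the other is mostly degraded. Bases 2 to 8 of the guide, the seed, pair with target mRNAs. miR-21-5p is the usual guide strand of its hairpin. It is one of the most abundant miRNAs in many tissues, is induced in inflammation, in the injured vessel wall and in fibrosis, and is known to repress Pdcd4. In serum, vesicles from several tissues mix, so fewer vesicles of a source and less miR-21 per vesicle cannot be told apart.

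The sequences are shown because the arms are told apart by them alone. In the RefSeq miRNA table of the rat assembly GRCr8, the Mir21 hairpin lies on the minus strand at chr10:71902600-71902691, with the 5p arm at chr10:71902653-71902674 and the 3p arm at chr10:71902615-71902636. Of its neighbours in the RefSeq gene list, Tubd1 lies on one side and Vmp1 on the other, and 0 other gene records overlap the hairpin. Capitals mark the seed in the mature arms and the arms in the hairpin.
rno-miR-21-5p: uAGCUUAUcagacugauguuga
rno-miR-21-3p: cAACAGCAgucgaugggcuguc
Mir21 hairpin: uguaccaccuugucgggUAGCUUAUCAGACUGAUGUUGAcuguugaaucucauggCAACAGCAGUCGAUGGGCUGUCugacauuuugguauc
The deposited table lists the same 22 bases for each arm, written as DNA. Each arm was found in 1 RefSeq hairpin, so its reads cannot have come from a second copy in that table. The arms differ in base composition, with 36.4% G and C in miR-21-5p and 59.1% in miR-21-3p. Their seeds, AGCUUAU and AACAGCA, differ as well. Besides 2 listed sequences that start like miR-21-5p, named miR-21-x and miR-21-z, the table holds 0 further ones with the seed of either arm.

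The arms sit opposite each other in the hairpin. In the minimum free energy structure predicted by RNAfold, at -42.6 kcal/mol, 19 base pairs join the 5p arm to the 3p arm, 3 of them between G and U, and 16 bases lie between the arms. All 7 seed bases of miR-21-5p were paired in this prediction, and 6 of the 7 of miR-21-3p.

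**Figure D1:**
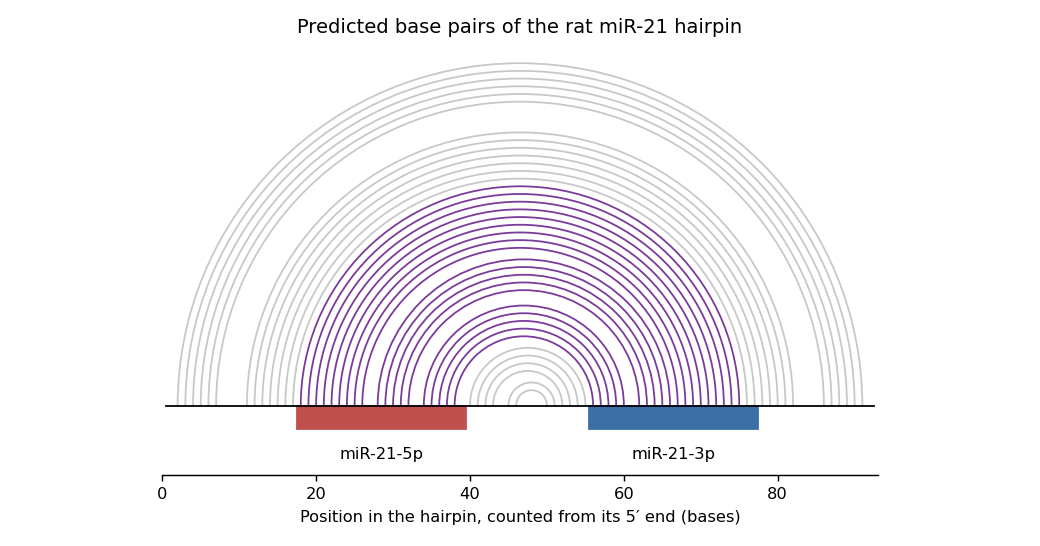
Predicted base pairs of the 92-base rat miR-21 hairpin, drawn as arcs over the position from the 5′ end in bases. Purple arcs are the 19 pairs between the 5p arm (red bar, bases 18 to 39) and the 3p arm (blue bar, bases 56 to 77), and grey arcs are the other pairs.

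miR-21-5p was among the abundant miRNAs of these exosomes. Its counts were 13980, 18190, 15419, 6306 and 24842 reads in NXT-Exo 1 to 5 and 8409 reads in Ctl-Exo 5. These made up 0.445% to 0.657% of the listed reads of a library and placed it between rank 26 and rank 32. By its mean level over the 6 libraries it was the 30th most abundant miRNA. The libraries held 1168686 to 3781718 listed reads, NXT-Exo 4 the fewest, and levels are given as CPM, counts scaled to a common library size with edgeR's TMM factors.

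On this scale the levels of miR-21-5p in NXT-Exo 1 to 5 were 4661, 5478, 6932, 4930 and 6479 CPM, and the level in Ctl-Exo 5 was 4579 CPM. All 5 NXT-Exo libraries were therefore higher than Ctl-Exo 5, although NXT-Exo 1 exceeded it by a factor of only 1.02. The exact 95% intervals (Clopper-Pearson), which cover counting error alone, overlapped for these libraries, at 4584 to 4739 CPM in NXT-Exo 1 and 4482 to 4677 CPM in Ctl-Exo 5. No other neighbours in the order of the 6 libraries had overlapping intervals. NXT-Exo 3 and NXT-Exo 5 were the highest libraries, and NXT-Exo 4 and NXT-Exo 1 the lowest of the treated ones.

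The NXT-Exo level of miR-21-5p was 5696 ± 981 CPM (SD, n = 5), 1.24 times that of the Ctl-Exo library. The log2 fold change in edgeR's quasi-likelihood test was 0.32 with a standard error of 0.25, an unadjusted p of 0.220 and an adjusted p of 0.815. Since 1 Ctl-Exo library was used, this test takes the spread from the NXT-Exo libraries and assumes that Ctl-Exo varies as they do. With the same assumption, 0 of the 865 miRNAs tested (0%) passed an adjusted p of 0.05, 46 had an unadjusted p under 0.05, and DESeq2 gave 0 and 33. Without NXT-Exo 2, edgeR called 1 miRNA, miR-122-5p (adjusted p of 0.031). The control library was the lowest of the 6 for 130 of the 865 miRNAs (15%), and miR-21-5p was one of them. Among the 467 miRNAs that averaged 10 or more reads, it was the lowest for 101. In an exact two-sided permutation test, in which each library in turn took the place of Ctl-Exo 5, p was 0.50, and with 1 control library used no p below 0.167 is possible. The difference between the groups did not pass the edgeR test, and the permutation test could not have passed a threshold of 0.05.

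That spread was far larger than counting error. The NXT-Exo libraries had a coefficient of variation of 17.2% for miR-21-5p, against 0.883% from counting alone at their depth. On the log2 scale the SD was 0.25, and the median SD was 0.32 over the 467 miRNAs that averaged 10 or more reads. Of these miRNAs, 165 varied less than miR-21-5p. Many of the 467 had far fewer reads and so a larger counting error. The median and this count therefore do not compare miR-21-5p with miRNAs of its own abundance. The highest treated library exceeded the lowest by a factor of 1.49.

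miR-21-3p, the strand that is mostly degraded, was present at low counts. It had 74, 83, 66, 47 and 79 reads in NXT-Exo 1 to 5 and 41 reads in Ctl-Exo 5, which placed it between rank 229 and rank 274. Every library was above a detection floor of 3 reads.

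The corresponding levels were 24.7, 25.0, 29.7, 36.7 and 20.6 CPM in NXT-Exo 1 to 5 and 22.3 CPM in Ctl-Exo 5. Ctl-Exo 5 thus lay inside the NXT-Exo range, above NXT-Exo 5 and below the other 4. Neighbours in the order of the libraries had overlapping intervals, and the interval of the highest, NXT-Exo 4 (27.0 to 48.9 CPM), did not overlap that of the lowest, NXT-Exo 5 (16.3 to 25.7 CPM).

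The NXT-Exo level of miR-21-3p was 27.3 ± 6.16 CPM (SD, n = 5), with a log2 fold change of 0.28 and a standard error of 0.46. Its adjusted p in edgeR's quasi-likelihood test was 0.864 (unadjusted 0.551), and the exact permutation p was 0.50. Counting error alone gives a coefficient of variation of 12.2% at this depth, and the observed value was 22.5%. The highest of its treated libraries, NXT-Exo 4, was below 3 of the other treated libraries for miR-21-5p.

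**Figure D2:**
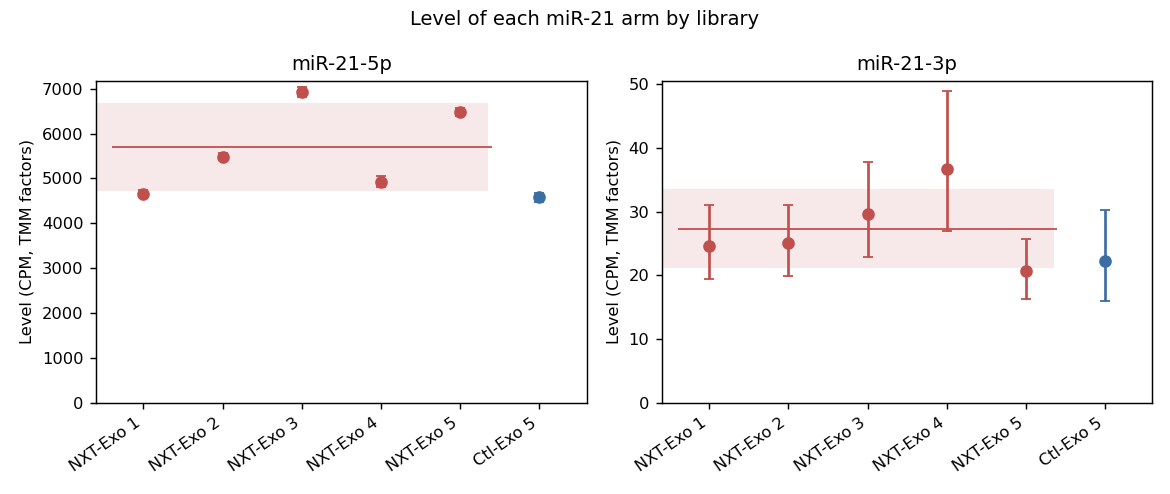
Level of miR-21-5p (left) and miR-21-3p (right) in CPM for each library, red for NXT-Exo and blue for Ctl-Exo, with exact 95% counting intervals. Red lines and bands are the NXT-Exo mean and SD (5696 ± 981 and 27.3 ± 6.16 CPM, n = 5). Ctl-Exo 5 lies below every NXT-Exo library for miR-21-5p and within their range for miR-21-3p.

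Both arms had a positive log2 fold change that was close to its standard error or below it. Larger absolute changes were fitted for 578 of the 865 miRNAs in the case of miR-21-5p and for 609 in that of miR-21-3p. Many miRNAs with few reads, whose fitted changes and standard errors are large, are among these. The counts therefore do not compare either arm with miRNAs of its own abundance. The median log2 fold change was 0.20 over all 865 miRNAs and 0.04 over the 467 better covered ones.

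**Figure D3:**
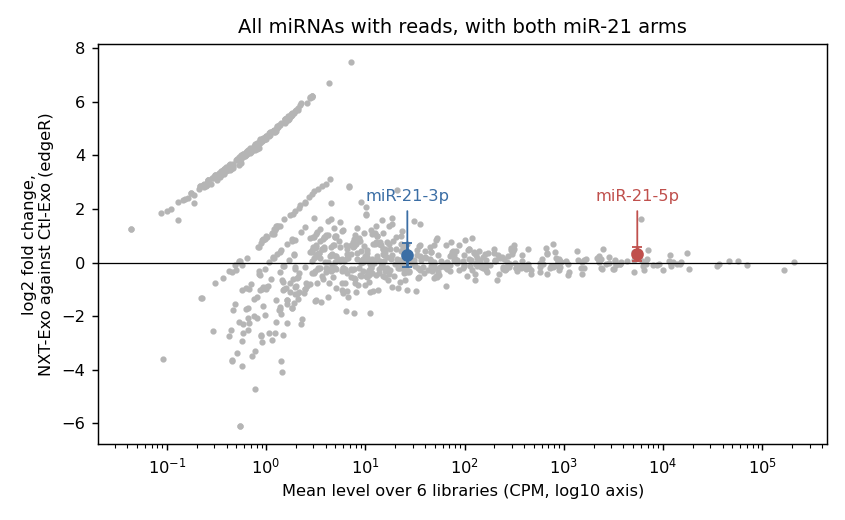
Log2 fold change of NXT-Exo against Ctl-Exo 5 from edgeR for 865 miRNAs (grey points), over the mean level in CPM on a log10 axis. Bars on miR-21-5p (red, 0.32) and miR-21-3p (blue, 0.28) are standard errors, and both points lie within the cloud of miRNAs of the same abundance.

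The ratio of the arms needs no scaling between libraries, since each library serves as its own reference. Per miR-21-3p read, NXT-Exo 1 to 5 held 189, 219, 234, 134 and 314 miR-21-5p reads, and Ctl-Exo 5 held 205. Ctl-Exo 5 lay in the middle of the treated libraries, below 3 of them and above 2. As a share of all miR-21 reads, miR-21-3p made up 0.485% in Ctl-Exo 5 (exact 95% interval 0.348% to 0.658%).

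The NXT-Exo ratio was 218 ± 66.0 (SD, n = 5). On the log2 scale its mean exceeded Ctl-Exo 5 by 0.03, far less than the SD of 0.45, and the exact two-sided permutation p was 1 (smallest possible 0.167). The sign of so small a difference changed without NXT-Exo 5 (-0.112) and without NXT-Exo 3 (-0.00465). The 5p arm was in excess by 134-fold or more in all 6 libraries.

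The treated libraries did differ among themselves in this ratio. The share of miR-21-3p was 0.740% in NXT-Exo 4 (exact 95% interval 0.544% to 0.983%) and 0.317% in NXT-Exo 5 (0.251% to 0.395%), with intervals that did not overlap. NXT-Exo 4 was the shallowest library and NXT-Exo 5 the deepest, with 1168686 and 3781718 listed reads. The part of depth in this difference was not tested. In the libraries of intermediate depth, NXT-Exo 1, 2 and 3, the share was 0.527%, 0.454% and 0.426%.

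**Figure D4:**
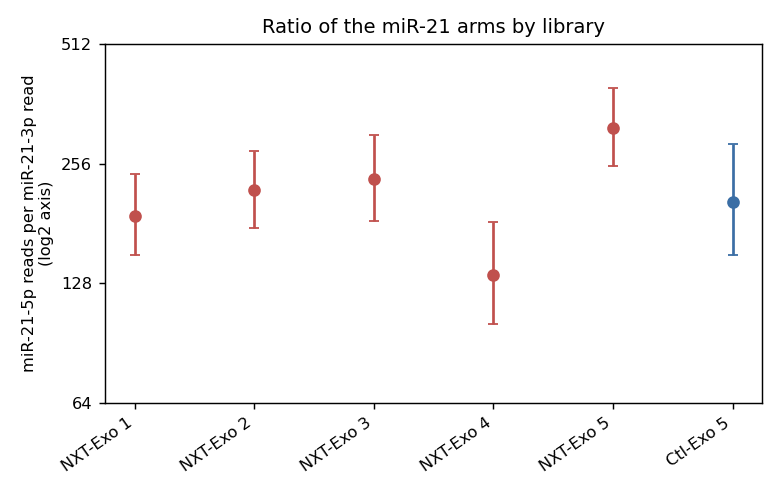
miR-21-5p reads per miR-21-3p read in each library on a log2 axis, with exact 95% intervals from the counts (NXT-Exo red, Ctl-Exo blue). Ctl-Exo 5 at 205 lies between the treated libraries, which run from 134 in NXT-Exo 4 to 314 in NXT-Exo 5.

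Set beside other hairpins, miR-21 had a strong preference for its 5p arm. Rat miRNA names with both arms listed and a mean of at least 10 reads over both arms numbered 115. With 1 read added to each arm, the log2 ratio of 5p to 3p reads averaged over the 6 libraries was above 0 for 70 of them, and that of miR-21 was 7.68, the 20th highest. The median size of the ratio over the 115 precursors, in either direction, was 4.52 on this scale, a 22.9-fold excess of one arm. Next above miR-21 were miR-183 (7.89), miR-99b (7.94) and miR-181d (8.31), and next below it miR-451 (6.76), miR-30b (6.73) and let-7e (6.69). miR-451 is known to be cut by Ago2 instead of Dicer.

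A stable ratio needs enough reads of the minor arm. In 69 precursors the minor arm had a mean of at least 10 reads, as miR-21-3p did with 65. Of the 69, 10 had a higher log2 ratio than miR-21, but this minimum filters on the arm that sets the ratio. Precursors with very high ratios, such as miR-26a (15.7), drop out by it, so the 10 do not measure how strong the preference of miR-21 is. Between the treated libraries 39 of the 69 varied less, the SD being 0.45 for miR-21 and 0.41 for the median. For 37 of the 115 precursors (32.2%) the ratio of Ctl-Exo 5 fell outside the range of the 5 NXT-Exo libraries, whereas that of miR-21 fell inside.

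**Figure D5:**
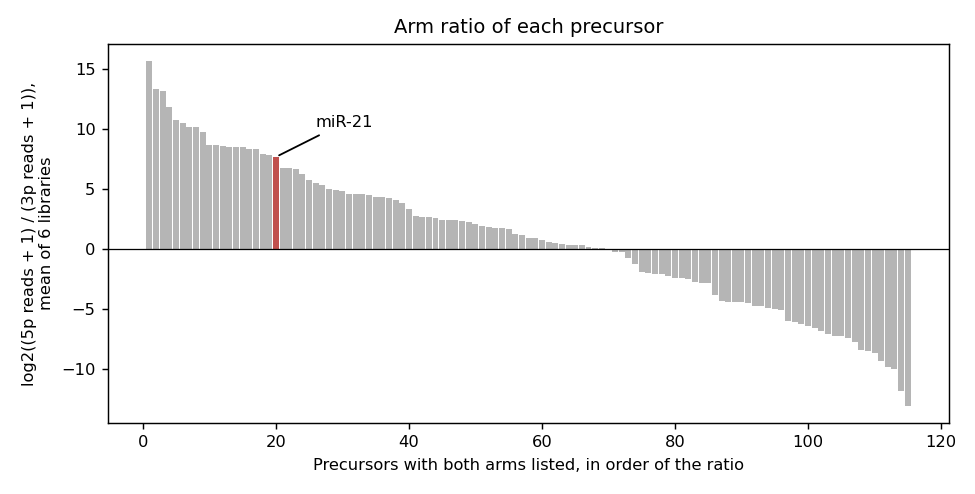
Log2 ratio of 5p to 3p reads, with 1 read added to each arm and averaged over the 6 libraries, for the 115 precursors with both arms listed, in order of the ratio. miR-21 (red) is the 20th from the left, at 7.68.

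The table also lists 2 sequences, both without the rat prefix, that start with the same 15 bases as miR-21-5p. The more abundant, miR-21-x, has all 22 bases of miR-21-5p followed by 2 more, of which 1 matches the rat hairpin. Its levels were 247, 337, 423, 276 and 394 CPM in NXT-Exo 1 to 5 and 213 CPM in Ctl-Exo 5, the lowest of the 6. The libraries followed the same order as for miR-21-5p, with NXT-Exo 3 highest. The log2 fold change of miR-21-x was 0.66 with a standard error of 0.28, with an unadjusted p of 0.026 and an adjusted p of 0.815 in edgeR's quasi-likelihood test.

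Relative to miR-21-5p, miR-21-x amounted to 5.30%, 6.16%, 6.10%, 5.60% and 6.07% of its reads in NXT-Exo 1 to 5 and to 4.65% in Ctl-Exo 5. Ctl-Exo 5, the only control library used, was thus the lowest of the 6 libraries. It was also the lowest for the levels of 15% of all miRNAs, and of 101 of the 467 that averaged 10 or more reads. The arm ratio of Ctl-Exo 5 lay below the NXT-Exo range for 14 of the 115 precursors and above it for 23. The low share of miR-21-x in Ctl-Exo 5 was noticed after the values were seen and was given no test of its own. The other sequence, miR-21-z, differs from miR-21-5p at 2 positions and had 49, 40, 35, 37 and 39 reads in NXT-Exo 1 to 5 and 14 reads in Ctl-Exo 5. Its level was highest in NXT-Exo 4, at 28.9 CPM against 10.2 to 16.3 CPM in the other treated libraries and 7.62 CPM in Ctl-Exo 5. No other listed sequence started with the first 15 bases of miR-21-3p. By its name miR-21-y belongs there and was added after its values were seen, and it had 1 read in NXT-Exo 4, 5 in NXT-Exo 5 and 0 elsewhere. With miR-21-x and miR-21-z added to miR-21-5p, its log2 fold change was 0.33 (adjusted p of 0.817 in edgeR).

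The miRNAs whose levels followed those of the arms most closely were found by the root mean square difference of their log2(CPM + 1) values over the 6 libraries, each centred on its own mean. Of 466 miRNAs that passed the same minimum, those nearest to miR-21-5p were miR-148-y (0.09), miR-130b-5p (0.10), miR-26b-3p (0.12), let-7a-5p (0.14) and miR-484-z (0.14), against a median of 0.38. let-7a-5p, a member of a family that is abundant in most differentiated tissues, ran from 9245 to 15586 CPM in the treated libraries, with Ctl-Exo 5 among them at 12441 CPM. Nearest to miR-21-3p were miR-193b-3p (0.09), miR-652-3p (0.12), miR-127-3p (0.16), miR-652-y (0.16) and miR-877-y (0.16), against a median of 0.42. miR-193b-3p averaged only 11 reads per library, so counting error makes its place uncertain. These comparisons share the same 6 libraries. The arms themselves were 0.36 apart, which put miR-21-3p in place 216 of 466 by its nearness to miR-21-5p.

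Lists of other miRNAs of the processes in which miR-21 is studied are given by their counts, beside the 0 of 865 miRNAs (0%) that passed in all. In the inflammation-responsive list, 0 of 10 passed the test, 1 had an unadjusted p under 0.05 (miR-31a-5p, 0.013, with a log2 fold change of 1.65), and the median log2 fold change was -0.32, against 0.20 over all miRNAs. Over the 467 better covered miRNAs the median was 0.04. The most abundant members of the list were miR-146a-5p (log2 fold change -0.24), a feedback inhibitor of NF-κB signaling, miR-146b-5p (-0.21), the myeloid miR-223-3p (-0.42) and miR-181b-5p (-0.03). For 4 of the 10, Ctl-Exo 5 lay above all treated libraries, as it did for 132 of all 865 miRNAs (15.3%). For 2, miR-31a-5p and miR-212-3p, it lay below. It did so for 130 of all 865 miRNAs (15%), miR-21-5p among them, and for 101 of the 467 better covered ones.

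Of the fibrosis and TGF-beta list, 0 of 10 passed, with a median of -0.01. It was led by miR-30a-5p (-0.04), miR-192-5p (0.47), miR-29a-3p (0.02), a repressor of collagen genes, and miR-199a-3p (-0.17). Of the vascular list, 0 of 11 passed, with a median of -0.08, and it was led by miR-92a-3p (0.06), miR-23a-3p (-0.13), the smooth muscle miR-143-3p (-0.27) and miR-27a-3p (-0.26). Ctl-Exo 5 was the lowest library for 3 of the 10 fibrosis and 0 of the 11 vascular miRNAs. It was so for 15% of all miRNAs and for 101 of the 467 better covered ones.

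Markers of cells whose RNA serum can hold were compared because miR-21 is made in many of them. All 5 red blood cell, 5 white blood cell and platelet, 4 liver and 4 muscle miRNAs had reads, and 0 of them passed the test. The red blood cell markers summed to 160225 to 263329 CPM in the treated libraries, and Ctl-Exo 5 lay inside this range at 213979 CPM. They were led by miR-486 (log2 fold change 0.03), miR-16-5p (-0.26), miR-451-5p (0.05) and miR-144-5p (-0.17). Nearly all of this sum was miR-486, at 207541 CPM in Ctl-Exo 5. Ctl-Exo 5 lay above all treated libraries for 1 of the 5, miR-16-5p, and inside the treated range for the other red blood cell markers. The white blood cell and platelet markers summed to 21635 to 25494 CPM after treatment, and Ctl-Exo 5 was higher at 26558 CPM. For miR-21-5p it was instead the lowest library. Most of the summed level came from miR-142-5p, which averaged 17700 CPM after treatment and stood at 20887 CPM in Ctl-Exo 5. Of the 5 markers, 2 had Ctl-Exo 5 above all treated libraries, miR-142-5p and miR-223-3p, against 132 of all 865 miRNAs (15.3%). For the other white blood cell and platelet markers it lay inside the treated range. The part of these markers in the level of miR-21-5p was not tested. The leading members of this list were miR-142-5p (-0.24), miR-150-5p (-0.06), miR-223-3p (-0.42) and miR-126a-3p (0.06).

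The summed liver markers ran from 10894 to 24383 CPM in the treated libraries, and Ctl-Exo 5 was lowest at 7596 CPM, as for miR-21-5p. They gave log2 fold changes of 0.47 for miR-192-5p, 1.64 for miR-122-5p (unadjusted p of 0.0088 in edgeR) and 1.37 for miR-122-3p. Nearly all of the sum came from miR-192-5p and miR-122-5p, at 5393 and 2195 CPM in Ctl-Exo 5. For these 2 of the 4 markers Ctl-Exo 5 lay below all treated libraries. It did so for 130 of all 865 miRNAs (15%) and for 101 of the 467 better covered ones. For miR-122-3p it lay inside the treated range. NXT-Exo 1 was highest for miR-122-5p, at 17384 CPM, and without it the log2 fold change of miR-122-5p was 0.94. For miR-802-5p, 1 of the 5 treated libraries had 0 reads, as did Ctl-Exo 5. NXT-Exo 1 was also the highest library in summed liver markers and the lowest treated one for miR-21-5p. The part of liver markers in the level of miR-21-5p was not tested. The muscle markers, miR-206-3p (0.64), miR-133a-3p (0.47), miR-1-3p (-0.75) and miR-499-5p (-1.14), summed to 95.4 to 156.2 CPM in the treated libraries, with Ctl-Exo 5 inside at 114.3 CPM.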

How the data were processed

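Small RNA of serum exosomes was sequenced in 5 NXT-Exo libraries and 1 Ctl-Exo library, grouped by their titles. Raw counts per listed miRNA sequence were deposited by the authors. ACGT101-miR had first filtered out adapter, low-complexity, repeat and other RNA reads, and the submitters' processing notes name the build Rnor_6.0. The aligner and the miRNA database release are not given in the sources used here. The authors also deposited TPM values, each a count times a constant per library, with 0 reads as 0.01. Another 8 columns of per-sample values, counts and TPM headed Ctl-Exo 1 to 4, match no sample in the labels used here and were not used here. The listed counts are 86.0% to 88.3% of the totals that the TPM imply.

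Counts were tested with edgeR 4.0.16 (TMM, quasi-likelihood, Benjamini-Hochberg over 865 miRNAs) in R 4.3.3, and the standard error was taken as the log2 fold change over the root of F. DESeq2 1.42.0 served as an alternative. The test script was checked on simulated data. Python 3.11.15, scipy 1.17.1, matplotlib 3.10.9 and RNAfold 2.7.2 were used for the rest. Nothing states that libraries came from separate rats, so p-values measure the spread between these libraries. Every pair of libraries differed beyond counting noise (chi-square per degree of freedom at least 38.1).

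The members and lists were chosen with earlier results of these data known. The miRNAs named are both arms, the 5 nearest to each in pattern, rows sharing the seed or first 15 bases, the 4 most abundant of each list and marker list with any that pass, and the 3 precursors on either side in arm ratio. miR-21-y, miR-31a-5p and miR-212-3p were named after their values were seen. Alternatives were other library factors, DESeq2, a minimum mean of 10 reads, differences of means and medians, 1 added read, added related sequences, leaving out each NXT-Exo library and, added later, the TPM.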

Additional observations from a re-analysis of the deposited data

How the results depend on the processing

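Related sequences in the fit of the levels and the deposited TPM were alternatives chosen after the data had been seen. The log2 fold changes of miR-21-5p and miR-21-3p kept their sign in every alternative tried and stayed short of the threshold in each one that gave a p. When each NXT-Exo library was left out in turn they were 0.24 to 0.38 for miR-21-5p and 0.16 to 0.36 for miR-21-3p. With other library factors, DESeq2, the minimum of 10 reads or added related sequences they were 0.30 to 0.36 and 0.26 to 0.33. The difference of medians gave 0.26 and 0.16, and the deposited TPM 0.36 and 0.34. The adjusted p lay between 0.786 and 0.982 for miR-21-5p and between 0.851 and 0.982 for miR-21-3p. The log2 difference of the arm ratio (0.03) was -0.112 to 0.195 when each NXT-Exo library was left out, with a negative sign without replicate 3 (-0.00465) and without replicate 5 (-0.112). It was 0.05 with 1 read added to each arm or with related sequences added, and 0.10 with the median of the libraries. The number of miRNAs past the threshold was 0 to 1 when each library was left out, the 1 being miR-122-5p without replicate 2, and 0 in the other fits. The number with Ctl-Exo 5 outside the NXT-Exo range (262) was 293 to 339 when each library was left out. It could not fall there, since leaving out a treated library can only narrow the range. With other library factors it was 238 to 263, and under the minimum of 10 reads 175 of 467. miR-21-3p joined these miRNAs, below the treated libraries, without replicate 5, which had been the only treated library below Ctl-Exo 5 for it. No paired analysis was possible because the libraries of NXT-Exo and Ctl-Exo that were used have only number 5 in common. Depth limits miR-21-3p, where 1 read in Ctl-Exo 5 is worth 0.544 CPM.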
